A study of Rattus norvegicus with 16 samples.

Results

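Transcripts of 9 genes that mark primed and disease-associated microglia were measured in rat brain after X-ray irradiation and a later immune challenge. The genes are Clec7a, Itgax, Gpnmb, Cd68, Lyz2, Lgals3, Cst7, Igf1 and Spp1. They were taken by symbol from the 21842 gene symbols of the count matrix, with no cut on their values. The list itself was chosen with earlier results of these data known, so shares over all genes are given for scale and not as a test. Each symbol stood on 1 Ensembl gene ID. All 9 passed the filter on low counts and were among the 13608 genes tested.

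Microglia of male Wistar rats (Hsd/Cpb:WU) were isolated from whole brain by cold mechanical dissociation and a flow cytometry gate for live (DAPI-negative) cells that were CD11b high and CD45 intermediate. The 4 groups held 4 libraries each. They were rats irradiated with 14 Gy of X-rays and given lipopolysaccharide (LPS, an inflammatory component of the outer membrane of bacteria), irradiated rats given the vehicle phosphate-buffered saline (PBS), sham-irradiated rats given LPS, and sham-irradiated rats given PBS. LPS or PBS was injected into the peritoneum 6 weeks after irradiation. The sources used here give neither the age of the rats nor the interval between injection and isolation. The labels do not name the animals, so p-values measure the spread between these libraries, which may be partly technical.

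Microglia at rest survey the brain and keep debris low. In mouse models of neurodegeneration, demyelination and ageing, microglia near damage take on a state that is marked by phagocytic receptors, lysosomal proteins and secreted factors, and part of that state depends on the receptor TREM2. Primed microglia share many of these markers and are known for a stronger reaction to a later inflammatory stimulus. The 9 genes cover receptors at the surface (Clec7a, Itgax), glycoproteins and enzymes of the endosome and lysosome (Gpnmb, Cd68, Lyz2), a lectin and a protease inhibitor (Lgals3, Cst7), and secreted growth and matrix factors (Igf1, Spp1).

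Promoters of 8 of the 9 genes were found in RefSeq (build GRCr8), as 250 bases before and 50 bases after each transcription start. Lgals3 had no entry. The counts themselves rest on build mRatBN7.2, so these coordinates apply to the sequences alone. The AP-1 motif TGANTCA was present in 4 of these 8 promoters, those of Gpnmb, Itgax, Cd68 and Cst7, and in 7.33% of 33469 RefSeq promoters of the same length. These 4 are shown, with Clec7a for contrast, because all 5 genes were higher in irradiated rats. Bases run 5′ to 3′ along the gene, and capitals mark AP-1 matches (TGANTCA) and matches to the PU.1 core (GAGGAA, or TTCCTC where it lies on the other strand).
Gpnmb (chr4:79340878-79341177, + strand): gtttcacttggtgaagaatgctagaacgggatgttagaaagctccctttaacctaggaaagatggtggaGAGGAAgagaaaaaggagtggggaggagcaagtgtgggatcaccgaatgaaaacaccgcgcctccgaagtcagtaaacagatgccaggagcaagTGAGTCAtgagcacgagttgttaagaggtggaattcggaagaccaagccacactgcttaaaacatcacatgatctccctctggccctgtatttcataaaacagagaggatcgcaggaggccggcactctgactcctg
Itgax (chr1:192149799-192150098, + strand): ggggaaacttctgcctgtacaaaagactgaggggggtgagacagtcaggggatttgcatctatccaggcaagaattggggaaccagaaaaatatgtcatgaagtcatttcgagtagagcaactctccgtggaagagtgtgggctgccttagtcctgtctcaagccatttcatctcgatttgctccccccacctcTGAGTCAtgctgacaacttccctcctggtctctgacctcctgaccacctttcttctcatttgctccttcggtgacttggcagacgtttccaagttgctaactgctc
Cd68 (chr10:54882392-54882691, - strand): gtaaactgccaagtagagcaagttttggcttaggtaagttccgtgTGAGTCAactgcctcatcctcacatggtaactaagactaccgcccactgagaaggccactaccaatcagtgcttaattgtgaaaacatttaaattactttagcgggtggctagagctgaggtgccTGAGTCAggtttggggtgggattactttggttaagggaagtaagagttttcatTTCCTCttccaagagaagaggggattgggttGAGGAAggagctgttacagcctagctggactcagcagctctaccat
Cst7 (chr3:159857030-159857329, + strand): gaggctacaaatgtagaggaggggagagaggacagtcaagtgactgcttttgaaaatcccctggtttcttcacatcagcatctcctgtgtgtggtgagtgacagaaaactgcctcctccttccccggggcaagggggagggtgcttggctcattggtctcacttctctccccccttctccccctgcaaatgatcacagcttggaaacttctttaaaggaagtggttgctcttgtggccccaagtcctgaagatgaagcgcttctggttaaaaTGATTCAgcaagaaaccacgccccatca
Clec7a (chr4:164599778-164600077, - strand): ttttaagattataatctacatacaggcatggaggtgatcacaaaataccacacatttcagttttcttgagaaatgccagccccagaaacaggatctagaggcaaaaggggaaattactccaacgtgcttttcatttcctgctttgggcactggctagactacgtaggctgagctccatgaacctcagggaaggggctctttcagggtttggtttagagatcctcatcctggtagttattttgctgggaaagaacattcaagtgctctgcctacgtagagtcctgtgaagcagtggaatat
Counted from the start site as 0, the AP-1 match began at -87 in Gpnmb, at -56 in Itgax, at -205 and -80 in Cd68 and at 22 in Cst7. The PU.1 core was found in Gpnmb, Cd68 and Lyz2, against 27.6% of all promoters. The E-box CACGTG, the NF-kB motif and the interferon-stimulated response element (ISRE) were in none of the 8 windows, against 6.42%, 0.362% and 3.92% of all promoters. Both strands were searched and no matches of different motifs overlapped. A match is a description of letters and not of binding.

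Total counts were 19e6 to 62.7e6 in irradiated LPS libraries, 14.3e6 to 25e6 in irradiated PBS libraries, 16.6e6 to 19.8e6 in sham LPS libraries and 16.8e6 to 22.5e6 in sham PBS libraries. Levels are in CPM, counts scaled to a common library size with TMM factors, in order of the library numbers 1 to 4. CPM is not corrected for gene length, so levels are compared within a gene. The words rose, fell, higher and lower are used of genes with a Benjamini-Hochberg adjusted p under 0.05 in edgeR's quasi-likelihood test. The 8 microglial markers were detected in every group and summed to 15000 to 19300 CPM in irradiated LPS, 19700 to 24400 in irradiated PBS, 33800 to 38000 in sham LPS and 39600 to 43000 in sham PBS libraries. In bulk samples, fewer cells of a type and less RNA per cell cannot be told apart.

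The first question was what irradiation alone had left in the cells 6 weeks later, in rats given PBS. Of the 9 genes, 7 were higher in irradiated than in sham rats and 0 were lower, whereas 11.5% of all genes tested were higher and 9.91% lower. The 7 were Clec7a, Itgax, Gpnmb, Cd68, Lyz2, Lgals3 and Cst7. For each of them, every irradiated library lay above every sham library, a separation seen in 13.9% of all genes. Igf1 and Spp1 did not pass. Their levels are given gene by gene here, with those after LPS.

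Clec7a encodes dectin-1, a receptor for fungal beta-glucans that signals through the kinase Syk. It had 758, 878, 866 and 671 CPM in irradiated rats given LPS and 600, 601, 402 and 355 CPM in irradiated rats given PBS. Sham rats had 15.4, 42.2, 24.8 and 30.5 CPM with LPS and 29.2, 26.0, 27.9 and 23.1 CPM with PBS. The irradiated libraries of both kinds stood far above the sham libraries, and the sham groups overlapped. Irradiation raised Clec7a by 4.20 ± 0.27 on the log2 scale in rats given PBS (fold change ± SE, n = 4 each), which is 18.4-fold. In rats given LPS the difference was 28.1-fold.

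Itgax encodes CD11c, an integrin alpha chain of dendritic cells and activated macrophages that pairs with the beta chain CD18. It had 355, 282, 259 and 351 CPM in irradiated rats given LPS and 138, 126, 87.8 and 83.1 CPM in irradiated rats given PBS. In sham rats it had 20.5, 34, 32.2 and 18.9 CPM with LPS and 10.1, 8.22, 9.11 and 5.79 CPM with PBS. No group overlapped another, and each of the 6 pairs of groups differed in the test. The order was irradiated LPS, irradiated PBS, sham LPS and sham PBS, from high to low. Irradiation raised Itgax 13.1-fold with PBS (3.71 ± 0.24) and 11.8-fold with LPS (3.56 ± 0.24).

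Gpnmb encodes a transmembrane glycoprotein that collects on phagosomes and lysosomes of macrophages. Its levels were 527, 526, 739 and 446 CPM in irradiated rats given LPS and 933, 817, 502 and 376 CPM in irradiated rats given PBS. Sham rats had 26.7, 34.9, 20.9 and 23.9 CPM with LPS and 33.5, 46.2, 40.6 and 34.1 CPM with PBS. The irradiated groups overlapped each other, as did the sham groups, and the irradiated libraries lay above all sham libraries. The rise with irradiation was 17-fold with PBS (4.09 ± 0.28) and 21-fold with LPS (4.39 ± 0.29).

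Cd68, a heavily glycosylated protein of late endosomes and lysosomes and a common stain for phagocytic macrophages, differed less in fold and varied little within groups. It had 482, 594, 496 and 496 CPM in irradiated rats given LPS and 619, 577, 500 and 438 CPM in irradiated rats given PBS. With sham irradiation it had 80.4, 121, 102 and 108 CPM after LPS and 113, 123, 124 and 124 CPM after PBS. Irradiated and sham libraries did not overlap, and LPS and PBS libraries overlapped within each. The rise with irradiation was 4.41-fold with PBS (2.14 ± 0.12) and 5.03-fold with LPS (2.33 ± 0.12).

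Lyz2 encodes lysozyme, which cleaves bacterial cell wall peptidoglycan and is abundant in macrophages and neutrophils. It had 20900, 18000, 17500 and 19300 CPM in irradiated rats given LPS and 19800, 18500, 12900 and 13900 CPM in irradiated rats given PBS. Levels in sham rats were 2370, 3290, 3310 and 2970 CPM with LPS and 2530, 3960, 2820 and 3350 CPM with PBS. As with Cd68, groups separated by irradiation and overlapped within it. Lyz2 was 5.14-fold higher with PBS (2.36 ± 0.16) and 6.35-fold higher with LPS (2.67 ± 0.16). The 9 genes together took 1.98% to 2.4% of the counts of irradiated LPS libraries, 1.52% to 2.51% of irradiated PBS, 0.254% to 0.346% of sham LPS and 0.27% to 0.416% of sham PBS libraries, most of it Lyz2 in every library.

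Lgals3 encodes galectin-3, a lectin that binds beta-galactosides and coats damaged lysosomes. It had 190, 158, 186 and 183 CPM in irradiated rats given LPS and 132, 119, 88.2 and 65.4 CPM in irradiated rats given PBS. Sham rats given LPS had 5.89, 18.2, 9.46 and 8.15 CPM, and sham rats given PBS had 5.23, 4.44, 6.07 and 4.65 CPM. The 4 groups kept the same order as for Itgax and each pair of groups differed in the test, though sham LPS library 1 lay inside the range of sham PBS. Irradiation raised Lgals3 19.8-fold with PBS (4.31 ± 0.31) and 17.1-fold with LPS (4.10 ± 0.30).

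Cst7 encodes cystatin F, an inhibitor of endolysosomal cysteine proteases such as cathepsins C and L. It had 68.3, 64.8, 54.5 and 96.3 CPM in irradiated rats given LPS and 8.58, 12.5, 16.6 and 11.8 CPM in irradiated rats given PBS. In sham rats it had 1.46, 9.78, 7.85 and 14.6 CPM with LPS and 2.13, 1.3, 0.874 and 1.73 CPM with PBS. All irradiated LPS libraries stood above the rest, and sham LPS library 1 lay inside the sham PBS range. Irradiation raised Cst7 8.32-fold with PBS (3.06 ± 0.50) and 8.4-fold with LPS (3.07 ± 0.45). Irradiated PBS and sham LPS libraries overlapped and did not differ in the test (0.56 ± 0.44, 95% interval -0.38 to 1.49, edgeR adjusted p = 0.351).

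Igf1, the gene of insulin-like growth factor 1, which supports neurons and myelin-forming cells, did not follow irradiation. It had 44.1, 27.9, 35.8 and 26.2 CPM in irradiated rats given LPS and 66.9, 65.5, 56.8 and 53.1 CPM in irradiated rats given PBS. It had 37.3, 37.1, 35.2 and 31.9 CPM in sham rats given LPS and 51.4, 59.2, 64.4 and 60.5 CPM in sham rats given PBS. Both LPS groups lay below both PBS groups with no overlap. The irradiated groups overlapped their sham counterparts, with a difference of 0.04 ± 0.14 on the log2 scale with PBS (95% interval -0.26 to 0.34, edgeR adjusted p = 0.883) and -0.08 ± 0.14 with LPS (95% interval -0.38 to 0.22, edgeR adjusted p = 0.729).

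Spp1, the gene of osteopontin, a secreted matrix protein and integrin ligand, was near the limit of detection. It had 1.23, 0.422, 0.748 and 2.5 CPM in irradiated rats given LPS and 1.68, 0.555, 0.625 and 1.6 CPM in irradiated rats given PBS. It had 0.425, 0.608, 2.29 and 0.771 CPM in sham rats given LPS, and 0.669 and 0.495 CPM in sham PBS libraries 1 and 4. Sham PBS libraries 2 and 3 had 0 counts, which allows up to 0.15 and 0.138 CPM at 3 counts (counting error only). All pairs of groups overlapped and none passed the test. The widest gap was 2.09 ± 0.96 between irradiated LPS and sham PBS (edgeR adjusted p = 0.085), a value that DESeq2 called (2.11, adjusted p = 0.0458) and so did edgeR without sham PBS library 1 (2.86, adjusted p = 0.0465).

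**Figure D1:**
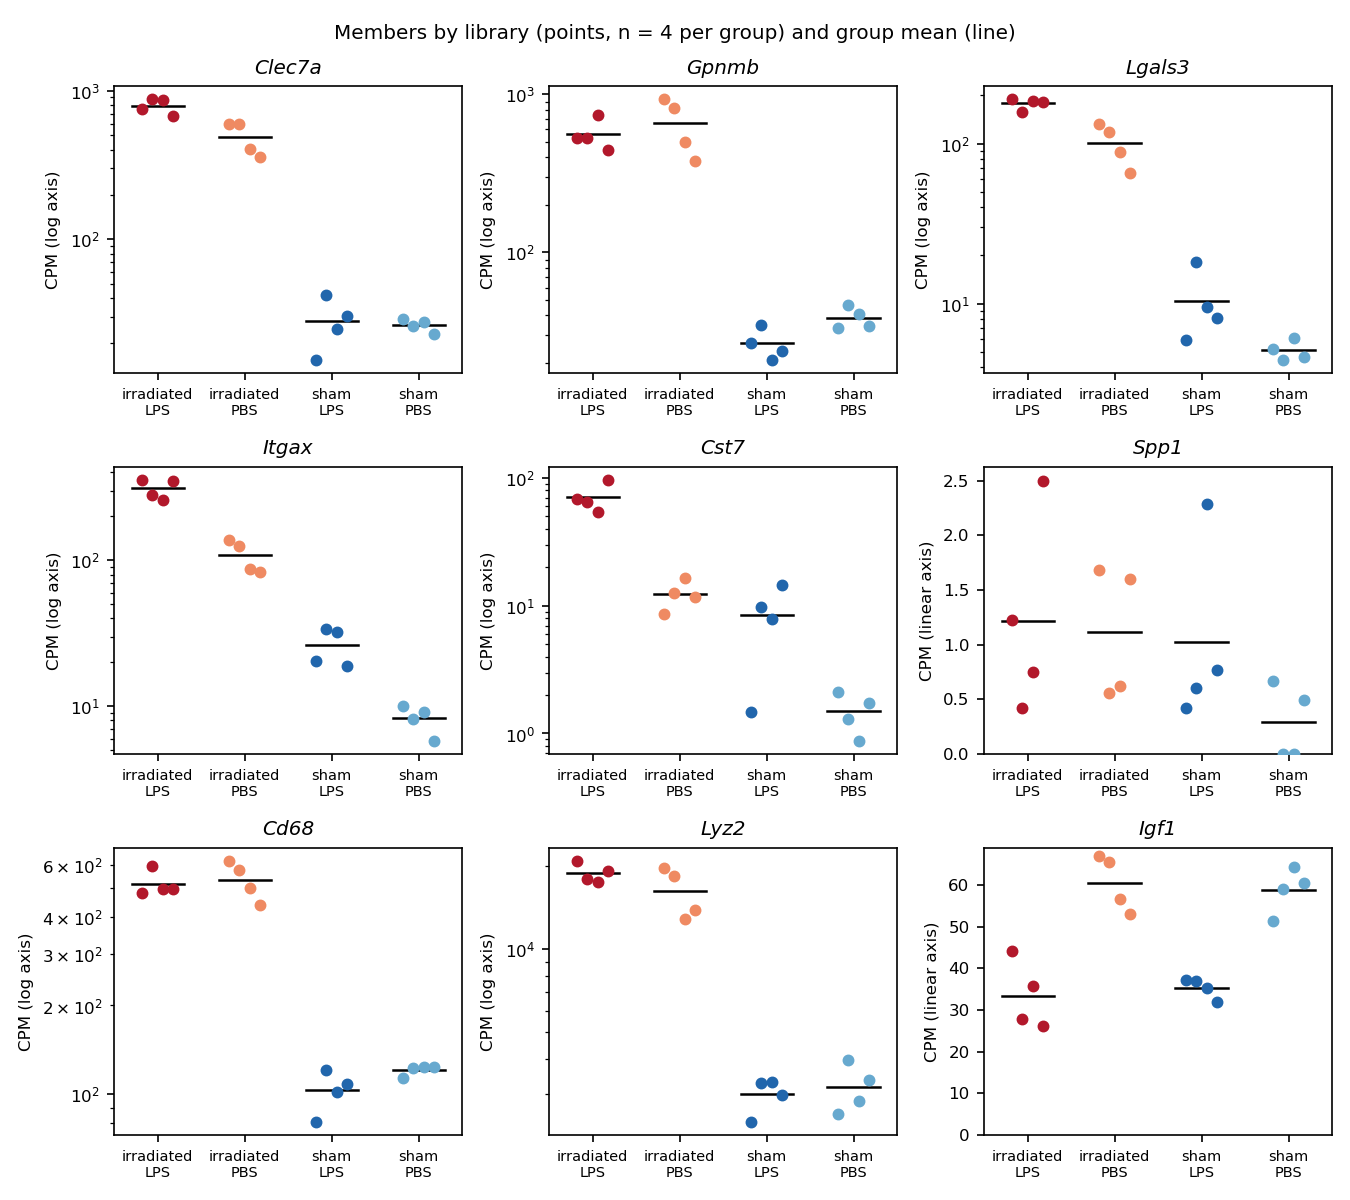
Levels of the 9 genes in CPM by library, with irradiated LPS, irradiated PBS, sham LPS and sham PBS from left to right. Points are libraries 1 to 4 and lines are group means, on log axes except for Spp1 and Igf1. Irradiated libraries stand above sham libraries given the same injection in 7 panels. For Cst7, irradiated PBS and sham LPS libraries overlap. The LPS groups stand lowest for Igf1, and Spp1 stays at or under 2.5 CPM.

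In rats given LPS the same question had the same answer in counts. Of the 9 genes, 7 were higher in irradiated than in sham rats and 0 were lower, against 15.1% and 12.6% of all genes. They were the 7 genes that were higher with PBS. The groups compared here share no library with those of the PBS comparison. Both comparisons came from a single fit with a shared estimate of the spread, so they are not fully independent. Differences ran from 2.33 for Cd68 to 4.81 ± 0.28 for Clec7a on the log2 scale. For all 7, every irradiated LPS library lay above every sham LPS library, against 15% of all genes.

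Both irradiated libraries numbered 1 had the highest neuron, oligodendrocyte and neutrophil marker sums of their groups. They had the lowest microglial sums (15000 CPM with LPS, 19700 with PBS), and not the highest T and NK cell or endothelial and mural cell sums. Irradiated LPS library 1 also had the highest border-associated macrophage (4340 CPM) and monocyte (977 CPM) sums. Irradiated PBS library 1 had the lowest monocyte sum of its group (423 CPM). Neuron markers summed to 92.7 CPM in irradiated LPS library 1 and 57.5 in irradiated PBS library 1. Neutrophil markers summed to 2090 CPM in irradiated LPS library 1 and 113 in irradiated PBS library 1. Without these 2 libraries all 7 genes remained higher in irradiated rats given PBS. The log2 differences were then 4.11 for Clec7a, 3.88 for Gpnmb, 4.17 for Lgals3, 3.59 for Itgax, 2.07 for Cd68, 3.21 for Cst7 and 2.27 for Lyz2.

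Markers of other immune cells were also higher in the irradiated libraries. With PBS, 9 of 10 border-associated macrophage markers were higher in irradiated than in sham rats and 0 were lower, and their sum was 1340 to 1660 CPM in irradiated against 400 to 469 CPM in sham libraries. Monocyte markers were higher in 7 of 9 cases (423 to 507 CPM in irradiated, 158 to 237 in sham), and T and NK cell markers in 9 of 9 (51.7 to 101 CPM in irradiated, 7.18 to 17.1 in sham). Of 7 neutrophil markers tested 0 passed in edgeR, 1 had an unadjusted p under 0.05 and 1 passed in DESeq2 (16 to 113 CPM in irradiated, 9.6 to 45.4 in sham). The neutrophil gene Mpo was at 0 in every library. With LPS, 9 of 10 border-associated macrophage, 7 of 9 monocyte, 8 of 9 T and NK cell and 7 of 7 neutrophil markers were higher in irradiated than in sham rats. The border-associated macrophage sum was then 3160 to 4340 CPM with irradiation and 480 to 1070 with sham, and the monocyte sum 594 to 977 with irradiation and 296 to 406 with sham. The T and NK cell sum was 390 to 896 CPM with irradiation and 18.5 to 175 with sham, and the neutrophil sum 114 to 2090 with irradiation and 17.1 to 84 with sham. Among the border-associated macrophage, monocyte and T and NK cell markers none was at 0 in a whole group. The part of these cells in the rise of the 7 genes was not tested.

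**Figure D2:**
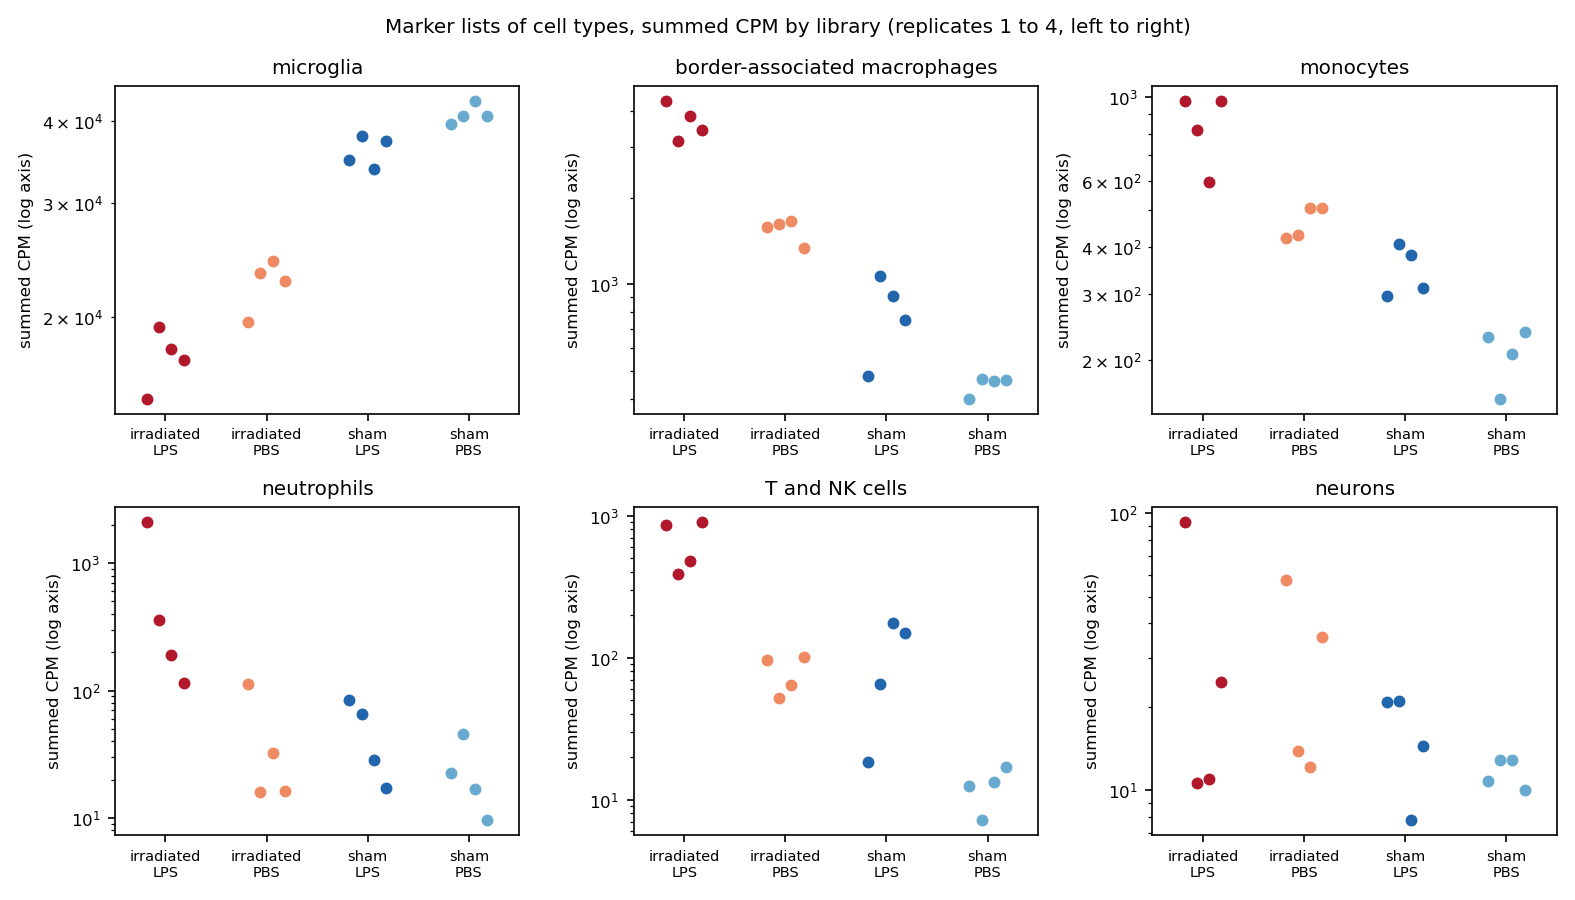
Summed CPM of marker lists of 6 cell types by library on log axes, with irradiated LPS, irradiated PBS, sham LPS and sham PBS from left to right. The microglial sum is lowest in irradiated LPS libraries (15000 to 19300 CPM), where the border-associated macrophage sum is highest (3160 to 4340 CPM). The irradiated LPS library 1 stands at 2090 CPM for neutrophil markers.

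The next question was how LPS changed the same genes, with and without earlier irradiation. In irradiated rats 4 of the 9 were higher with LPS than with PBS and 1 was lower, against 17% and 14.5% of all genes. Those higher were Cst7 (5.71-fold, 2.51 ± 0.44), Itgax (2.87-fold, 1.52 ± 0.22), Lgals3 (1.77-fold, 0.82 ± 0.26) and Clec7a (1.62-fold, 0.70 ± 0.23), and Igf1 fell by 0.86 ± 0.14. All 5 separated the LPS from the PBS libraries without overlap, whereas 17.5% of all genes lay wholly above and 14.8% wholly below. Gpnmb (-0.23 ± 0.25, edgeR adjusted p = 0.539), Cd68 (-0.05 ± 0.12, 0.817), Lyz2 (0.22 ± 0.15, 0.305) and Spp1 (0.13 ± 0.88, 0.935) did not pass. Neutrophil markers were higher in 7 of 7 cases in the same comparison, with sums of 114 to 2090 CPM with LPS and 16 to 113 with PBS. Monocyte markers were higher in 5 of 9 cases, with 1 lower, and T and NK cell markers in 4 of 9. Of 10 border-associated macrophage markers 3 were higher and 3 lower, and their sum was 3160 to 4340 CPM with LPS and 1340 to 1660 with PBS. The part of these cells in the LPS response was not tested.

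The calls of Clec7a (edgeR adjusted p = 0.0339) and Lgals3 (edgeR adjusted p = 0.0247) in irradiated rats were close to the threshold. With library totals in place of TMM factors, which shifted the median of all genes by -0.118, Clec7a stood at 0.57 (adjusted p = 0.0723) and Lgals3 at 0.70 (adjusted p = 0.0519), so that 3 genes were called. Leaving out a single irradiated library ended the call of Clec7a for LPS libraries 1 (0.72, adjusted p = 0.0537), 2 (0.64, 0.0786) and 3 (0.65, 0.0782) and PBS libraries 3 (0.61, 0.0973) and 4 (0.57, 0.1). For Lgals3 it ended the call for LPS libraries 1 (0.80, 0.0518), 3 (0.81, 0.0509) and 4 (0.82, 0.0525) and PBS libraries 3 (0.76, 0.0694) and 4 (0.66, 0.0726). Without both irradiated libraries numbered 1 both calls held (Clec7a 0.83, adjusted p = 0.0399, and Lgals3 0.95, adjusted p = 0.0301). The rises of Itgax and Cst7 and the fall of Igf1 held in each of these fits.

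In sham rats 3 of the 9 genes were higher with LPS than with PBS and 1 was lower, against 15.2% and 14.5% of all genes. Cst7 rose 5.66-fold (2.50 ± 0.51), Itgax 3.18-fold (1.67 ± 0.23) and Lgals3 2.05-fold (1.03 ± 0.29), and Igf1 fell by 0.73 ± 0.14. Itgax and Igf1 separated the groups without overlap (14.6% of all genes lay wholly above and 15.3% wholly below), whereas sham LPS library 1 overlapped the PBS range for Cst7 and for Lgals3. Clec7a (0.09 ± 0.24, 95% interval -0.43 to 0.61, edgeR adjusted p = 0.826), Gpnmb (-0.54 ± 0.26, 0.137), Cd68 (-0.24 ± 0.12, 0.15), Lyz2 (-0.08 ± 0.15, 0.725) and Spp1 (1.83 ± 0.96, 0.168) did not pass. Gpnmb was called lower when only the groups compared were fitted (-0.52, adjusted p = 0.0394). Sham LPS library 1 was the lowest of its group for 6 of the 9 genes and library 2 the highest for 5.

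Markers of other immune cells were read in the same comparison of the sham groups, in which 15.2% of all genes were higher with LPS and 14.5% lower. T and NK cell markers were higher with LPS in 4 of 9 cases (18.5 to 175 CPM with LPS, 7.18 to 17.1 with PBS) and monocyte markers in 3 of 9, with 2 lower (296 to 406 CPM with LPS, 158 to 237 with PBS). Border-associated macrophage markers were higher in 3 of 10 cases, with 1 lower (480 to 1070 CPM with LPS, 400 to 469 with PBS), and neutrophil markers in 1 of 7 (17.1 to 84 CPM with LPS, 9.6 to 45.4 with PBS). Sham LPS library 1, whose Cst7 and Lgals3 levels lay in the PBS range, was the lowest of its group in T and NK cell (18.5 CPM), border-associated macrophage (480 CPM) and monocyte (296 CPM) sums and the highest in neutrophil sum (84 CPM). The part of these cells in the LPS response of sham rats was not tested.

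**Figure D3:**
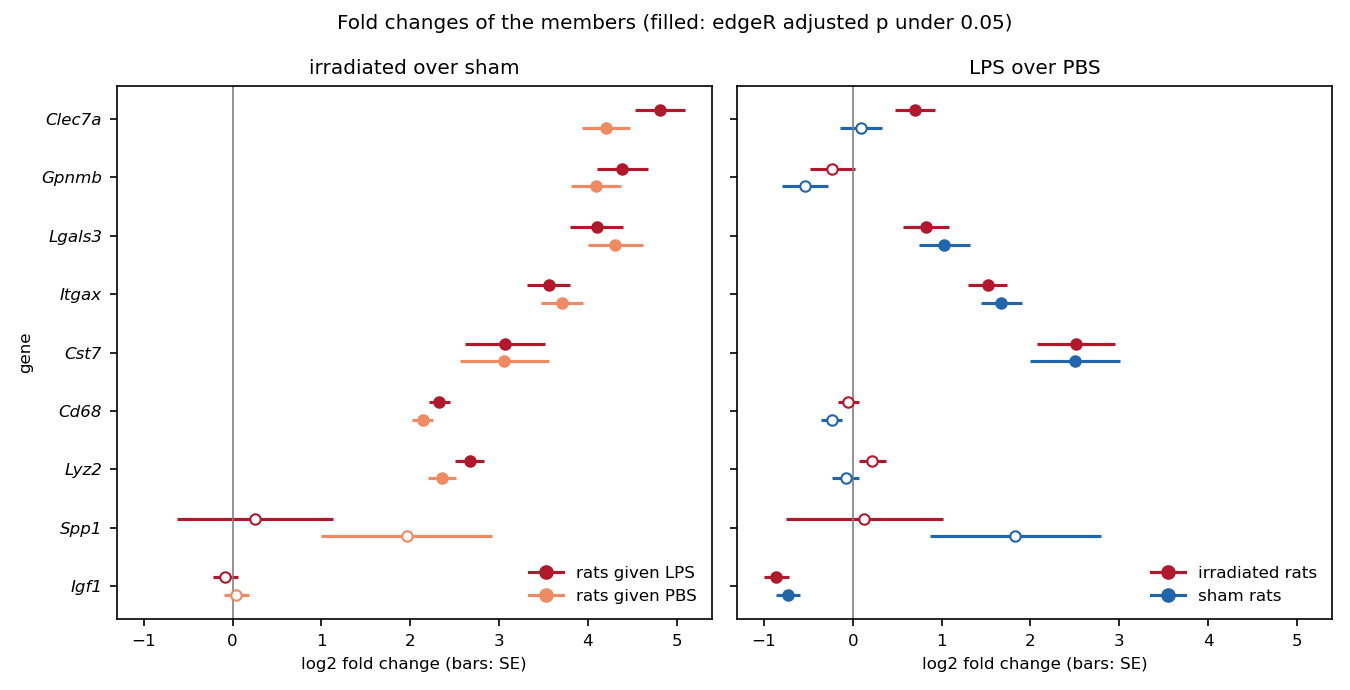
Log2 fold changes with SE (n = 4 libraries per group) for irradiated over sham rats, left, and for LPS over PBS, right. Filled points passed the edgeR test. Irradiation moved 7 genes up with either injection, and LPS moved Lgals3, Itgax and Cst7 up and Igf1 down with and without irradiation.

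A test of the difference between the LPS responses asks whether irradiated and sham cells responded to LPS differently. By edgeR, 0 of the 9 genes differed in their response, 0 at an unadjusted p under 0.05 and 0 by DESeq2, against 1.26% of all genes (171 genes). The response of Clec7a was larger in irradiated rats by 0.61 ± 0.34 on the log2 scale, with a 95% interval of -0.11 to 1.33 (edgeR adjusted p = 0.536). Intervals were -0.82 to 0.52 for Itgax, -1.05 to 0.63 for Lgals3, -1.42 to 1.45 for Cst7 and -0.55 to 0.30 for Igf1. They were -0.46 to 1.08 for Gpnmb, -0.16 to 0.54 for Cd68, -0.15 to 0.76 for Lyz2 and -4.45 to 1.04 for Spp1. Cd68 and Igf1 were measured most closely of the 9, and the interval of Spp1 spans several units. These intervals bound the difference and do not show equal responses.

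**Figure D4:**
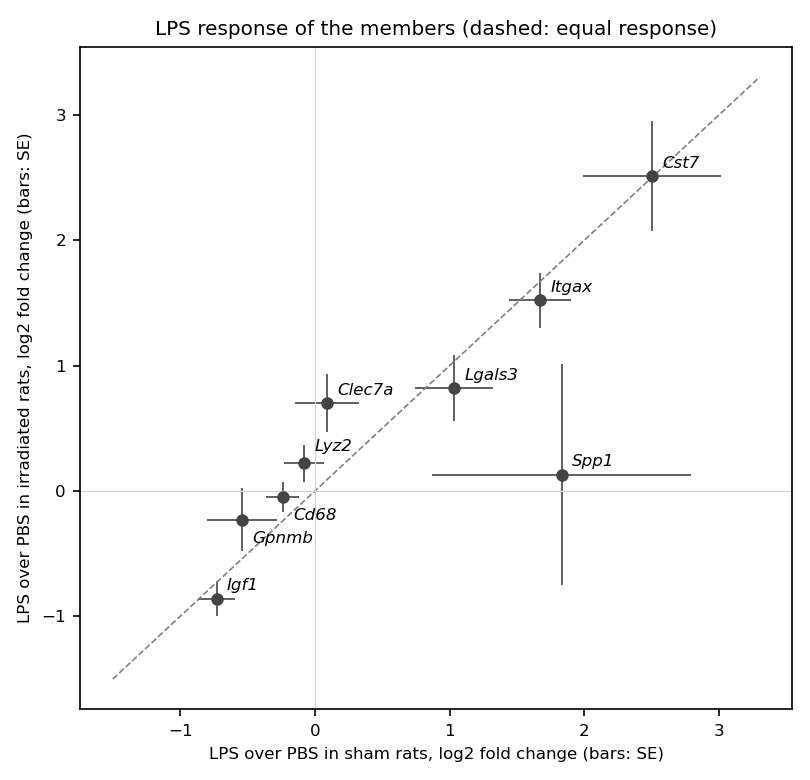
LPS response of the 9 genes as log2 fold change over PBS, in irradiated rats on the vertical axis and in sham rats on the horizontal axis, with SE bars. The dashed line marks equal responses. Cst7, Itgax, Lgals3 and Igf1 lie near it, and Clec7a lies above it at 0.70 against 0.09.

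Levels after both exposures were set against those after neither. Irradiated rats given LPS exceeded sham rats given PBS 47.5-fold for Cst7, 37.6-fold for Itgax, 35.1-fold for Lgals3, 29.9-fold for Clec7a, 14.5-fold for Gpnmb, 5.99-fold for Lyz2 and 4.27-fold for Cd68, and Igf1 fell by 0.82 ± 0.14 on the log2 scale. That made 7 of 9 genes higher and 1 lower, against 23.9% and 21.5% of all genes. For irradiated rats given PBS against sham rats given LPS, 7 of 9 were higher and 0 lower, against 18.4% and 18.8% of all genes. These 7 included Igf1 (0.78 ± 0.14) and not Cst7. The comparisons of this paragraph use the same libraries as those before it.

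Other genes of the same programme were read from a list of 50 genes compiled from general knowledge, of which 44 were tested. With PBS, 20 of the 44 were higher in irradiated than in sham rats and 9 were lower, against 11.5% and 9.91% of all genes, with a list median of 0.45 and a median of all genes of 0.00, which library totals shifted by 0.156. The scavenger receptor gene Msr1 (2.96 ± 0.22), the annexin gene Anxa5 (2.81 ± 0.21), whose protein binds phosphatidylserine, and Lgals3bp (2.37 ± 0.14), which encodes a secreted glycoprotein that galectin-3 binds, had the smallest p of the list. The lipid droplet gene Plin2 (0.91 ± 0.13) and the tetraspanin gene Cd63 (0.58 ± 0.11) were also higher. Trem2, the receptor on which part of the mouse programme depends, fell by 0.70 ± 0.09. Of 5 cathepsin genes of the list 3 fell, among them Ctss by 0.74 ± 0.09 and Ctsl by 0.83 ± 0.14, and Ctsz stood at 0.08 ± 0.08 (edgeR adjusted p = 0.503). With LPS in irradiated rats 16 of the 44 were higher and 7 lower (median 0.27, all genes -0.02), against 17% and 14.5% of all genes. With LPS in sham rats 11 were higher and 7 lower (median -0.03, all genes -0.01), against 15.2% and 14.5%. The share of lower genes was near that of all genes in both. Trem2 fell by 0.84 ± 0.09 with LPS in irradiated rats and by 0.45 ± 0.09 in sham rats, while Msr1 rose by 1.19 ± 0.20 in irradiated rats and by 1.22 ± 0.21 in sham rats.

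**Figure D5:**
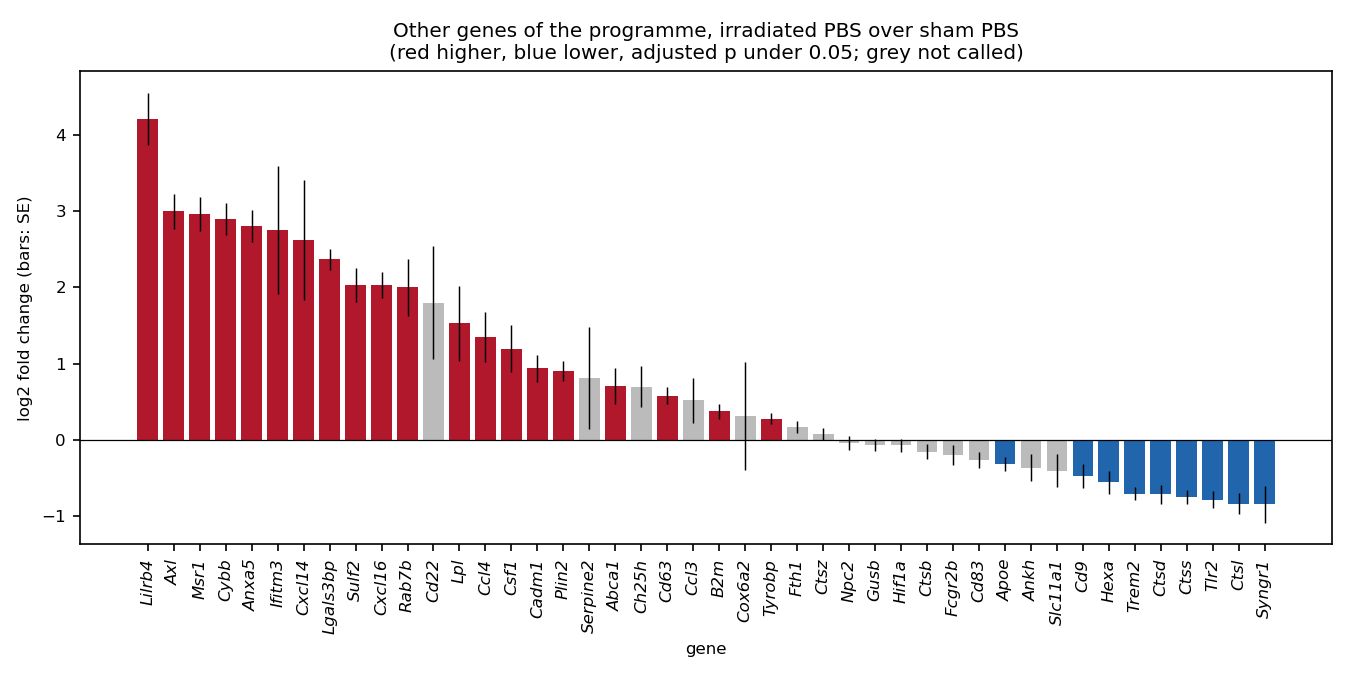
Log2 fold change with SE of 44 other genes of the programme in irradiated over sham rats given PBS, ordered by size. Red and blue bars passed the edgeR test. The list divides into 20 genes that were higher and 9 that were lower, Trem2 (-0.70) and Ctsl (-0.83) among them.

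Genes tied to signalling by dectin-1 and by TREM2 were read in the same comparison of irradiated and sham rats given PBS. In it, 11.5% of all genes were higher and 9.91% lower. Of 15 dectin-1 signalling genes 1 was higher and 2 were lower (median -0.08), a share near that of all genes. The higher one was Vav3, a guanine nucleotide exchange factor gene (3.34 ± 0.50), and the lower ones were the kinase gene Src (-0.65 ± 0.11) and the phospholipase gene Plcg2 (-0.57 ± 0.10). Syk stood at -0.08 ± 0.12 (edgeR adjusted p = 0.699), and its adaptor Card9 at -0.09 ± 0.59 (0.943). After LPS Syk fell by 0.82 ± 0.12 in irradiated and by 0.45 ± 0.12 in sham rats. Of 12 genes listed for TREM2 signalling 3 were higher with irradiation and PBS and 4 were lower (median -0.13, all genes 0.00). They included the adaptor gene Hcst (1.11 ± 0.19) and the lipid phosphatase gene Inpp5d (-0.66 ± 0.09). The list also holds Trem2 itself, which was lower, and Adam10, Adam17, Ms4a4a and Ms4a6a, so it is not confined to genes downstream of TREM2. Syk and Plcg2 stand in both lists.

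Cystatin F inhibits proteases of the cathepsin family. Of 11 cystatin and cathepsin genes 1 was higher with irradiation and PBS and 6 were lower, with a median of -0.59, against 11.5% and 9.91% of all genes. Besides Ctsl and Ctss, the protease genes Lgmn (-0.59 ± 0.08) and Ctsk (-0.87 ± 0.17) were lower, whereas cathepsin C (Ctsc) stood at -0.09 ± 0.08 (edgeR adjusted p = 0.459). Cst3, the gene of the secreted inhibitor cystatin C, fell by 1.09 ± 0.10, and Cstb, the gene of the cytosolic inhibitor cystatin B, rose by 0.91 ± 0.10. Of 9 lysosomal membrane and lipid genes set beside Cd68 and Gpnmb, 1 was higher and 4 were lower (median -0.04), against the same shares of all genes. Lamp2 fell by 0.78 ± 0.11, the cholesterol transporter gene Npc1 by 1.06 ± 0.18 and Tmem106b by 0.60 ± 0.09, and Lamp1 stood at 0.00 ± 0.14 (edgeR adjusted p = 0.996). Cd68, Gpnmb and Lyz2 were higher while Lamp2, Npc1 and Tmem106b were lower in the same libraries. These 3 were named for the smallest p of their list in this comparison. The 1 higher gene of that list was Cd63, named above.

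Partners of the surface and secreted members differed among themselves. Itgb2, which encodes the CD18 chain that pairs with CD11c, was lower with irradiation and PBS by a small amount (-0.29 ± 0.07), a call lost with library totals (-0.13, adjusted p = 0.108). Cd44, a receptor for osteopontin and hyaluronan, rose by 2.64 ± 0.28, and the integrin genes Itga4 (2.27 ± 0.22) and Itgal (1.60 ± 0.19), both also monocyte markers, rose with it. That made 3 higher and 2 lower of 13 integrin and osteopontin partner genes (median 0.04), against 11.5% and 9.91% of all genes, and 2 lower genes of 13 is near that share. Of 4 genes tested from a list of galectin genes and Lgals3bp, 2 were higher and 0 were lower, against the same shares of all genes. The higher ones were the galectin gene Lgals9 (1.98 ± 0.22) and Lgals3bp. The latter is not a galectin gene and was already counted in the programme list above. Lgals1 stood at 1.01 ± 0.76 (edgeR adjusted p = 0.394).

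The genes whose profile over the 16 libraries was closest to each member were found among 7946 genes, by the root mean square (RMS) difference of mean-centred log2 CPM. For Clec7a they were the potassium channel gene Kcnn4 (RMS 0.38) and the inhibitory receptor gene Lilrb4 (0.50), and for Lgals3 the same genes (0.32 and 0.45). Gpnmb was closest to the urokinase gene Plau (0.39) and RGD1565355 (0.47). Itgax was closest to Msr1 (0.49) and the xanthine dehydrogenase gene Xdh (0.55), and Cst7 to the interferon regulatory factor gene Irf7 (0.54) and Ly6c (0.57). Cd68 and Lyz2 both had the annexin gene Anxa4 nearest (0.18 and 0.24), followed by the folate receptor gene Folr2 (0.23) and Lgals3bp (0.28). Of these genes, Folr2 is also on the border-associated macrophage list and Ly6c on the monocyte list. Lilrb4, Msr1 and Lgals3bp are on the programme list. Igf1 lay closest to the receptor kinase gene Grk2 (0.14) and Pias3 (0.16). Spp1 had no close profile, with Hlx at 0.93 and Tagln2 at 0.94. For scale, the members' own RMS spread about their means was 0.44 for Igf1 and 2.30 for Clec7a.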

How the data were processed

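Bulk RNA sequencing libraries of sorted rat microglia (16, 4 per group) were analysed from raw read counts per Ensembl gene that the authors deposited. Per the submitters' processing notes, HTSeq 2.0.2, fastp 0.23.2 and FastQC 0.11.9 were used with build mRatBN7.2. An aligner, an annotation release and a strand setting are not given in the sources used. The files held 30560 gene IDs, and a matrix summed by symbol differed from them in 0 of 349472 cells. The members, companion lists and marker lists were chosen with earlier results of these data known.

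Counts of all 16 libraries were fitted by a robust quasi-likelihood model with 1 coefficient per group, after filterByExpr and TMM scaling (edgeR 4.0.16 in R 4.3.3), a method also tested on simulated data. Each SE was taken as the log2 fold change divided by the square root of F. For the interaction of members it is the root of the summed squares of the SEs of the LPS responses. Intervals are at 95%. P-values were adjusted over 13608 genes. The common biological coefficient of variation was 28.9%. Alternatives were DESeq2 1.42.0, RLE factors or library totals, no count filter, no robust moderation, counts summed by symbol, only the groups compared, a replicate block, and leaving out libraries.

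All 9 members are named. Of each companion list the text draws on up to 3 genes with the smallest p for irradiation with PBS and for the interaction, and on known partners of the members. Profiles were compared on log2 CPM (prior count 2) among named genes with a mean of at least 3. Precision is limited by 4 libraries per group, and floors of 3 counts cover counting error only. A result of 1 companion gene that this rule names is not reported here.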

Additional observations from a re-analysis of the deposited data

Results flagged for a closer look

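Cd68 held 2 values that stood apart from the other 3 libraries of their group by Dixon's gap test, among 36 groups of member values tested. Irradiated LPS library 2 had 594 CPM, above 482 to 496 CPM in the others, and sham PBS library 1 had 113 CPM, below 123 to 124 CPM. Chance flags about 1 in 20 groups.

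No member differed in its LPS response between irradiated and sham rats (edgeR interaction, adjusted p under 0.05, log2 scale, n = 4 per group). Of the named companion genes 10 did, but up to 3 per list were named for their small p in this same test. Their number is therefore no contrast with the members. Over all genes 1.26% differed. The difference is the response in irradiated minus that in sham rats, so a positive value can mean a smaller fall. By list, positive differences were called for 3 of 44 other programme genes and 2 of 12 TREM2 signalling genes. Positive ones were also called for 2 of 18 MiT/TFE and related genes. Negative ones were called for 1 of 18 MiT/TFE and related, 1 of 13 integrin partner and 1 of 9 lysosomal genes. The difference was positive for Bhlhe40 (1.49), the inhibitory Fc receptor gene Fcgr2b (1.34) and Mitf (0.95). The same held for the lipid droplet gene Plin2 (0.80), Hif1a (0.77), Ms4a6a (0.77) and Pik3ap1 (0.72). Negative differences were those of Mef2a (-1.14), Itgav (-1.07), an integrin chain that binds osteopontin, and Lamp1 (-0.83). For Fcgr2b LPS changed the level by 1.25 ± 0.13 in irradiated rats and by -0.08 ± 0.13 in sham rats, and for Itgav by -0.25 ± 0.11 in irradiated and 0.82 ± 0.11 in sham rats. For Mitf, a regulator of lysosomal genes and of Gpnmb, the changes were -0.02 ± 0.15 in irradiated and -0.98 ± 0.16 in sham rats. Without the irradiated LPS and PBS libraries numbered 1 the calls of Bhlhe40 (1.61, adjusted p = 0.0619), Mitf (0.99, 0.0789), Plin2 (0.89, 0.0537), Pik3ap1 (0.63, 0.0713), Mef2a (-1.22, 0.056) and Lamp1 (-0.86, 0.0537) were lost, and those of Fcgr2b (1.34, 0.0013), Itgav (-1.09, 0.00944), Hif1a (0.72, 0.0187) and Ms4a6a (0.73, 0.0187) held. Among single libraries left out, the adjusted p of these 4 stayed at or under 0.0162, and that of Pik3ap1 at or under 0.0481. The calls of Bhlhe40, Mitf, Plin2, Mef2a and Lamp1 were lost with many single libraries left out, irradiated or sham. Without sham PBS library 1 their edgeR adjusted p was 0.0602, 0.0871, 0.0921, 0.0574 and 0.0944.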

How the results depend on the processing

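Over all alternatives 1566 values of 63 member results were computed. Of these 1518 kept direction and side of the threshold, 13 lost a call, 3 gained a call and 32 changed sign, and 0 of the sign changes were in a result that had been called. Counts of members called were within 1.5 times the values reported, except for LPS in irradiated rats, where 5 became 3 with library totals and leaving out single libraries gave 3 to 5. The count of genes with a different LPS response (171) was 418 by DESeq2, 98 without both irradiated libraries numbered 1, and 103 to 191 with single libraries left out (113 without sham PBS 1, 103 without sham PBS 3, 112 without irradiated PBS 3, 111 without irradiated PBS 4 and 109 without irradiated LPS 4). The call of Clec7a for LPS in irradiated rats was also lost with no count filter (0.71, adjusted p = 0.0694). The cause was not tested.

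Signs changed in values near 0. Without both irradiated libraries numbered 1, LPS in irradiated rats gave 0.07 for Cd68 and 0.01 for Gpnmb, the interaction of Cst7 was -0.09 (-0.04 with library totals), and irradiated PBS against sham LPS gave -0.11 for Spp1. With single libraries left out the ranges were -0.13 to 0.03 for Cd68 and -0.50 to 0.42 for Spp1 (LPS in irradiated rats), -0.17 to 0.29 for Clec7a and -0.18 to 0.04 for Lyz2 (LPS in sham rats), -0.33 to 0.42 for Cst7 and -0.40 to 0.21 for Lgals3 (interaction), -0.02 to 0.10 for Igf1 (irradiation with PBS), -0.24 to 0.02 for Igf1 and -0.38 to 1.01 for Spp1 (irradiation with LPS), and -0.13 to 0.88 for Spp1 (irradiated PBS against sham LPS).

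A replicate block on the title numbers left every count of members called as it was and gave 221 genes for the interaction. Under the block Spp1 stood at -0.15 (irradiation with LPS) and -0.18 (irradiated PBS against sham LPS). The labels do not say what equal numbers share, and the numbers were not taken as pairs. In their deviations from the group means, 10 of 24 same-numbered pairs of libraries correlated above 0.1 (-0.0887 to 0.405). Of the 16 libraries, 13 were on average closest to libraries of their own number in other groups. Equal numbers may thus share something that the main fit does not allow for, which was not tested further. Counts were lowest for Spp1 (0 to 93 per library) and, in sham PBS libraries, for Cst7 (19 to 35), and an effect of depth was not tested.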

Other observations

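Further lists touched Igf1 and Gpnmb. Of 9 tested genes of the insulin-like growth factor system 3 were higher in irradiated than in sham rats given PBS and 1 was lower (median 1.85, all genes 0.00), against 11.5% and 9.91% of all genes. All but Insr (13 CPM) and Igf1r (18.1 CPM) had low means in sham PBS libraries, from 0.0498 CPM for Igfbp4 to 2.25 for Igf2r. The list median thus rests largely on genes with low counts. The receptor gene Igf2r, whose product clears IGF2 and sorts lysosomal enzymes, rose by 2.87 ± 0.37, and the binding protein gene Igfbp3 rose by 1.96 ± 0.50. The insulin receptor gene Insr fell by 1.02 ± 0.30, a call lost with library totals (-0.87, adjusted p = 0.0526). The call was also lost without both irradiated libraries numbered 1 (-1.04, edgeR adjusted p = 0.0536). Leaving out sham PBS library 2 (-0.88, 0.0708) or irradiated PBS library 4 (-0.94, 0.0595) ended it too. Igf1r stood at -0.58 ± 0.25 (edgeR adjusted p = 0.114). Of 18 MiT/TFE and related macrophage regulator genes 4 were higher and 2 lower (median 0.23), against 11.5% and 9.91% of all genes, including the MiT family gene Tfec at 1.84 ± 0.32 and the AP-1 subunit gene Jun at 0.62 ± 0.13. Tfec rose again with LPS, by 2.61 ± 0.31 in irradiated rats and by 1.92 ± 0.33 in sham rats.

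Among irradiated PBS libraries, numbers 1 and 2 both stood above 3 and 4 for 7 of the 9 members, all except Cst7 and Spp1.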
